A study of Arabidopsis thaliana with 8 samples.

Results

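The genes described here are the plastid-encoded genes of photosynthesis and of the chloroplast NAD(P)H dehydrogenase-like (NDH) complex. They were measured in whole 7-day-old Arabidopsis thaliana seedlings on Affymetrix arrays. A member is a probe set that the array annotation assigns to 1 plastid gene alone, whose lower-case symbol begins with psa, psb, pet or ndh or is rbcL, atpA, atpB, atpE, atpF, atpH or atpI. This gave 43 of the 22810 probe sets on the array, and of the 13356 genes named alone by a probe set, each for a different gene: 15 of photosystem II, 5 of photosystem I, 6 of the cytochrome b6f complex, 6 of the ATP synthase, 1 of Rubisco and 10 of NDH. The probe set of ndhB names both copies of that gene in the inverted repeat and is therefore not a member. The 8 arrays fell into 4 groups of 2: seedlings of a mutant short of gibberellin, with a leaky allele in Ler, seedlings of a de-etiolated mutant in Col, and the wild types Ws and Ler. They are called gibberellin-deficient and de-etiolated seedlings here. All seedlings were untreated. The labels name neither mutated gene, Col itself was not analysed here, and the de-etiolated seedlings are therefore set against wild types of other accessions. Accession and mutation cannot be told apart in those comparisons.

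The chloroplast genome retains core subunits of the complexes that turn light into chemical energy, and the nucleus encodes the remaining subunits, so each complex is built from both genomes. Photosystem II splits water, the cytochrome b6f complex passes electrons on and pumps protons, photosystem I reduces ferredoxin, and the ATP synthase uses the proton gradient. Rubisco fixes carbon dioxide, with its large subunit made in the plastid from rbcL and its small subunit imported. The NDH complex returns electrons from ferredoxin to the plastoquinone pool in cyclic flow around photosystem I. Most of these plastid genes are transcribed together in units that are cut and edited afterwards by nuclear-encoded proteins. Plastid transcripts carry little stable poly(A), and the labels do not state how the RNA was primed for labelling.

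The values are signals with no unit, 1 per probe set and array, and a signal of 1 probe set is not set against that of another. The median signal of the 43 members was 1428 on de-etiolated replicate 2 and 1151 to 1291 on the 7 other arrays. Arrays of 1 group correlated at 0.973 to 0.978 over the 13648 probe sets kept for testing (log2 signal), and arrays from different groups at 0.908 to 0.966. The older actin control had a 3′ to 5′ signal ratio of 3.84 and 4.93 in gibberellin-deficient seedlings and 2.35 and 2.32 in de-etiolated seedlings, against 2.26 and 1.90 in Ws and 5.22 and 4.77 in Ler. The newer actin control did not show this split, with ratios of 1.16 to 1.497 in the 4 arrays of the Ler background and 1.26 to 1.37 in the 4 others, and the ubiquitin ratio was 0.79 to 0.99 in the Ler background and 0.99 to 1.83 in the others. The 25S rRNA control gave 69.7 and 39.6 in gibberellin-deficient seedlings and 108 and 62.4 in de-etiolated seedlings, against 22.2 to 32.0 in the wild types. The part of these differences in the results was not tested. Of 4 marker genes listed for green tissue and 4 for root, 1 each was named by a probe set, and their signals on the 8 arrays were 473 to 1255 for RCA and 103 to 355 for XTH26. The floral and seed storage markers listed had no such probe set. In whole seedlings, fewer cells of a type and less RNA per cell cannot be told apart.

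Over the 4 groups, the share of photosynthesis and NDH genes that passed the test was near that of all probe sets. Those that passed came from several complexes. Differences below are log2 differences of group means of log2(signal + 2.96). For members called with all 8 arrays, the limma standard error (SE) is given beside the difference where their complex is described. The p-values are limma's, adjusted by Benjamini-Hochberg over the 13648 probe sets tested. A member was called where the adjusted p was under 0.05. The filter on low signals kept 42 of the 43 members, all but ndhF. Over the 4 groups, 10 of the 42 members (23.8%) differed by limma's F test, against 26.1% of all probe sets tested. In single comparisons 9 members were called, all with differences under 1 on the log2 scale. They made up 12 calls over the 5 comparisons, of which only that of ndhG was kept when limma was run without a mean-variance trend. De-etiolated seedlings had the highest group mean for 22 of the 42 members, gibberellin-deficient seedlings for 13, Ws for 3 and Ler for 4. The lowest mean was in gibberellin-deficient seedlings for 14, in de-etiolated seedlings for 6, in Ws for 8 and in Ler for 14. Such counts over all probe sets are not given here, so these have no background share beside them. With de-etiolated replicate 2, the array with the highest median member signal, left out, the highest mean was in de-etiolated seedlings for 16, in gibberellin-deficient seedlings for 14, in Ws for 8 and in Ler for 4. From the lowest to the highest array a member's signal varied 1.19 to 3.48-fold, with a median of 1.56-fold. The 2 arrays of a group differed by a median of 1.12-fold, and by more than 1.5-fold in 10 of 168 pairs.

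**Figure D1:**
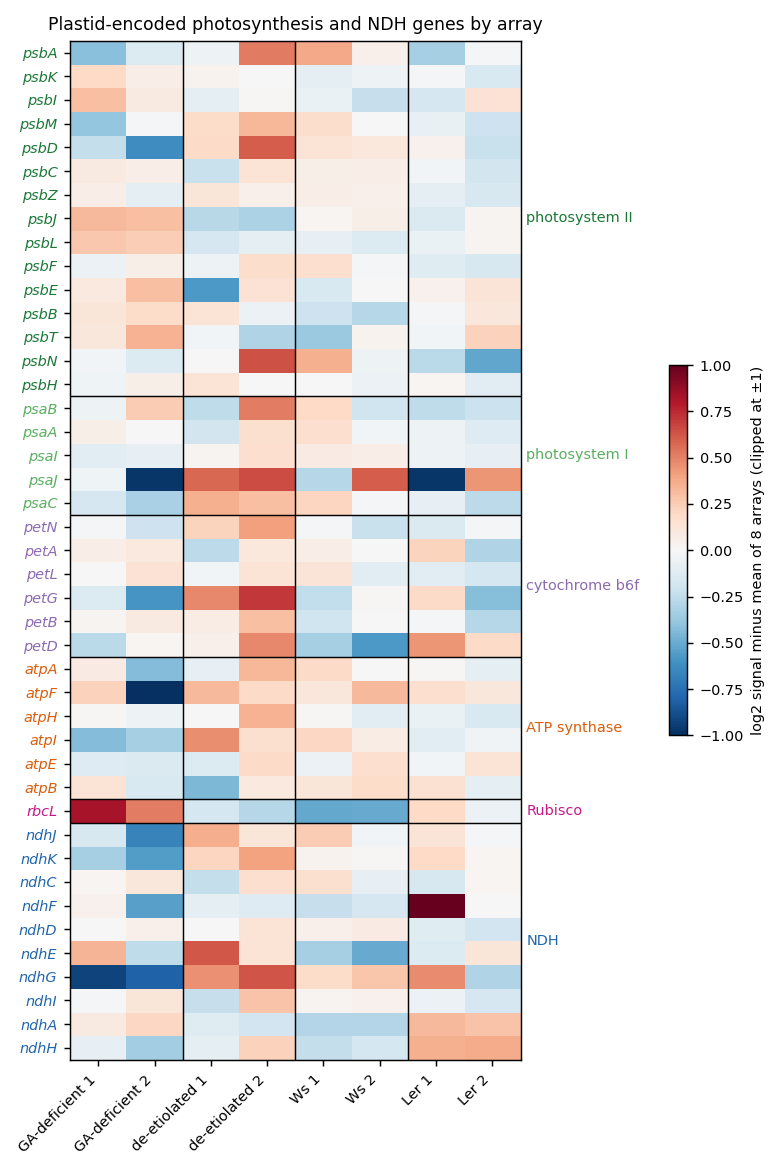
Log2 signal of the 43 members (down) on the 8 arrays (across), each minus the member's mean over the arrays and clipped at ±1, by complex and group. The gibberellin-deficient arrays are high for rbcL and low for ndhG, while most members vary little between arrays; ndhF was too dim to be tested.

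Compared with Ler, their own background, gibberellin-deficient seedlings had more rbcL signal and less signal of the NDH genes ndhG, ndhK and ndhH. These 4 of the 42 members (9.52%) were called, 1 higher and 3 lower, against a background of 10.7% of all probe sets (4.55% higher and 6.18% lower). No photosystem, cytochrome b6f or ATP synthase gene was called in this comparison. Of the 33 members outside NDH, 4 had an unadjusted p under 0.05 by limma, rbcL included, against 3528 of all 13648 probe sets. The median difference over the 42 members was 0.07, against 0.0086 over all probe sets. Of the 38 members not called, 36 had a 95% interval within 1 log2 unit either side of 0. The 4 called differences were themselves smaller than 1, so this bound does not exclude differences of their size. The 26 other plastid-encoded genes on the array, most of them for ribosomal proteins, had 11 lower (42.3%), 0 higher and a median of -0.30 in the same comparison, and the difference between both sets was not tested. Centring the arrays on the plastid-encoded genes moved the median of all probe sets to 0.28 in this comparison. With that scaling 9 members were called, all higher, rbcL among them, and ndhG, ndhK and ndhH were no longer called. Without gibberellin-deficient replicate 1 none of the 4 stayed called by limma, while 1 other member, atpF, was called lower. Without gibberellin-deficient replicate 2 or Ler replicate 1 rbcL alone stayed, and without Ler replicate 2 ndhG alone. Without either Ws array 3 stayed, and without either de-etiolated array all 4.

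**Figure D2:**
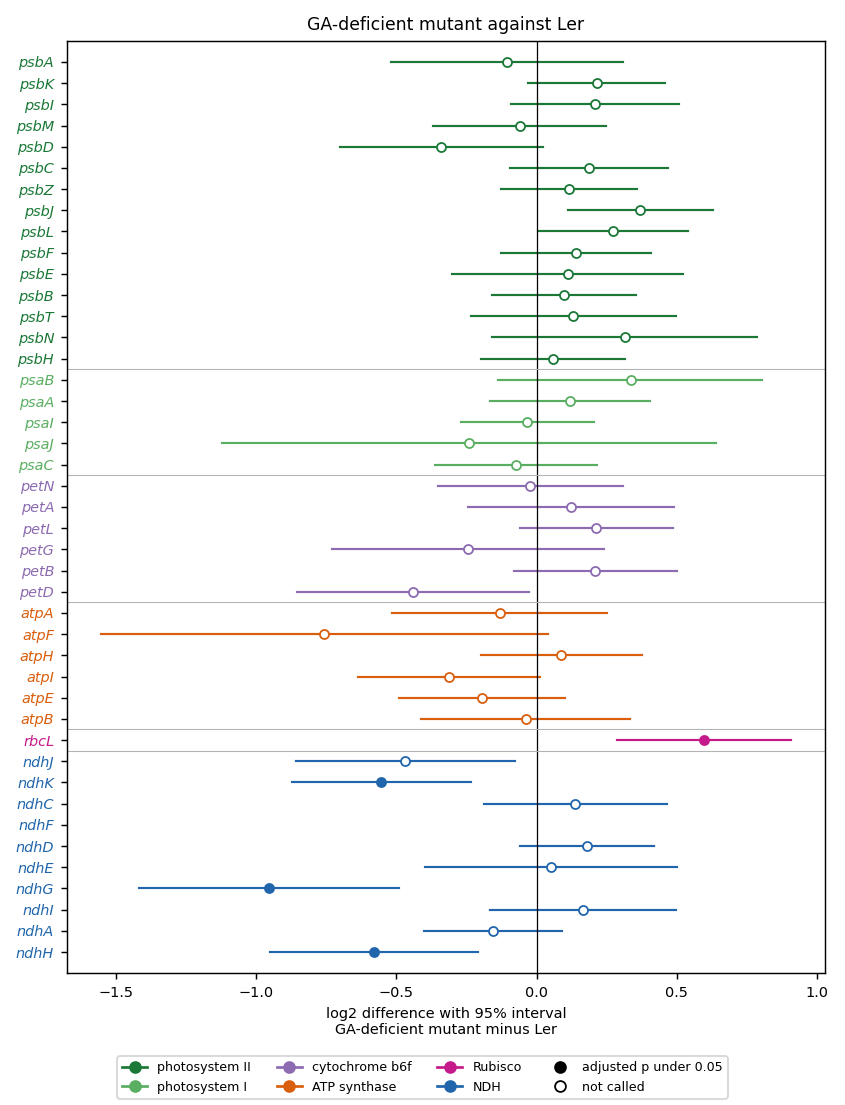
Log2 difference (horizontal) of gibberellin-deficient seedlings minus Ler for each tested member (vertical), with its 95% interval from limma, n = 2 arrays each. Filled points are called, and these are rbcL at 0.60 and the NDH genes ndhG, ndhK and ndhH at -0.95, -0.55 and -0.58.

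De-etiolated seedlings had higher signals of petG, psbN and psaC and a lower signal of ndhA than Ler, and petG was also higher than the mean of Ws and Ler. Against Ler, 4 of 42 members (9.52%) were called, 3 higher and 1 lower, where 15.9% of all probe sets were (7.83% higher and 8.03% lower). Against the mean of both wild types 1 member (2.38%) was called, higher, where 11% of all probe sets were called and 5.45% were higher. None was called against Ws, where 2.24% of all probe sets were. There, 6 of the 42 members had an unadjusted p under 0.05 by limma, against 2309 of all 13648 probe sets. Median member differences were 0.17 against Ler, 0.11 against the mean of both wild types and 0.11 against Ws, beside medians of 0.0024, 0.017 and 0.021 over all probe sets. These 3 comparisons share the de-etiolated arrays. Of the 4 calls against Ler, 0 stayed by limma without de-etiolated replicate 2, where psbE was called lower instead, and 0 without Ler replicate 2, where psaJ was called higher. Without de-etiolated replicate 1 those of psbN and ndhA stayed and 4 others, psbA, psbD, psaB and atpH, were called higher. Without Ler replicate 1 those of petG and psaC stayed and ndhG was called higher, and 2 stayed without either gibberellin-deficient array and 3 without either Ws array. Against the mean of both, petG stayed without either gibberellin-deficient array, where ndhE was called too, and without Ler replicate 1, where ndhG was called too. Without de-etiolated replicate 2 petG was not called, and ndhE was higher and atpB and psbE lower; without Ler replicate 2 psaJ was called in its place. Against Ws, ndhE was called without de-etiolated replicate 2, and no member was called by limma without any other array.

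Between the wild types, Ws had less rbcL, petD and ndhA signal than Ler. These 3 of 42 members (7.14%) were called, all lower, where 5.82% of all probe sets were called and 3.11% were lower. The median member difference was 0.09, against -0.019 over all probe sets. None of the 3 stayed called by limma without either Ws array or Ler replicate 1, rbcL and ndhA stayed without Ler replicate 2 or gibberellin-deficient replicate 2, and all 3 without any other array. The Ws and de-etiolated comparisons with Ler and the gibberellin-deficient comparison share the 2 Ler arrays.

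**Figure D3:**
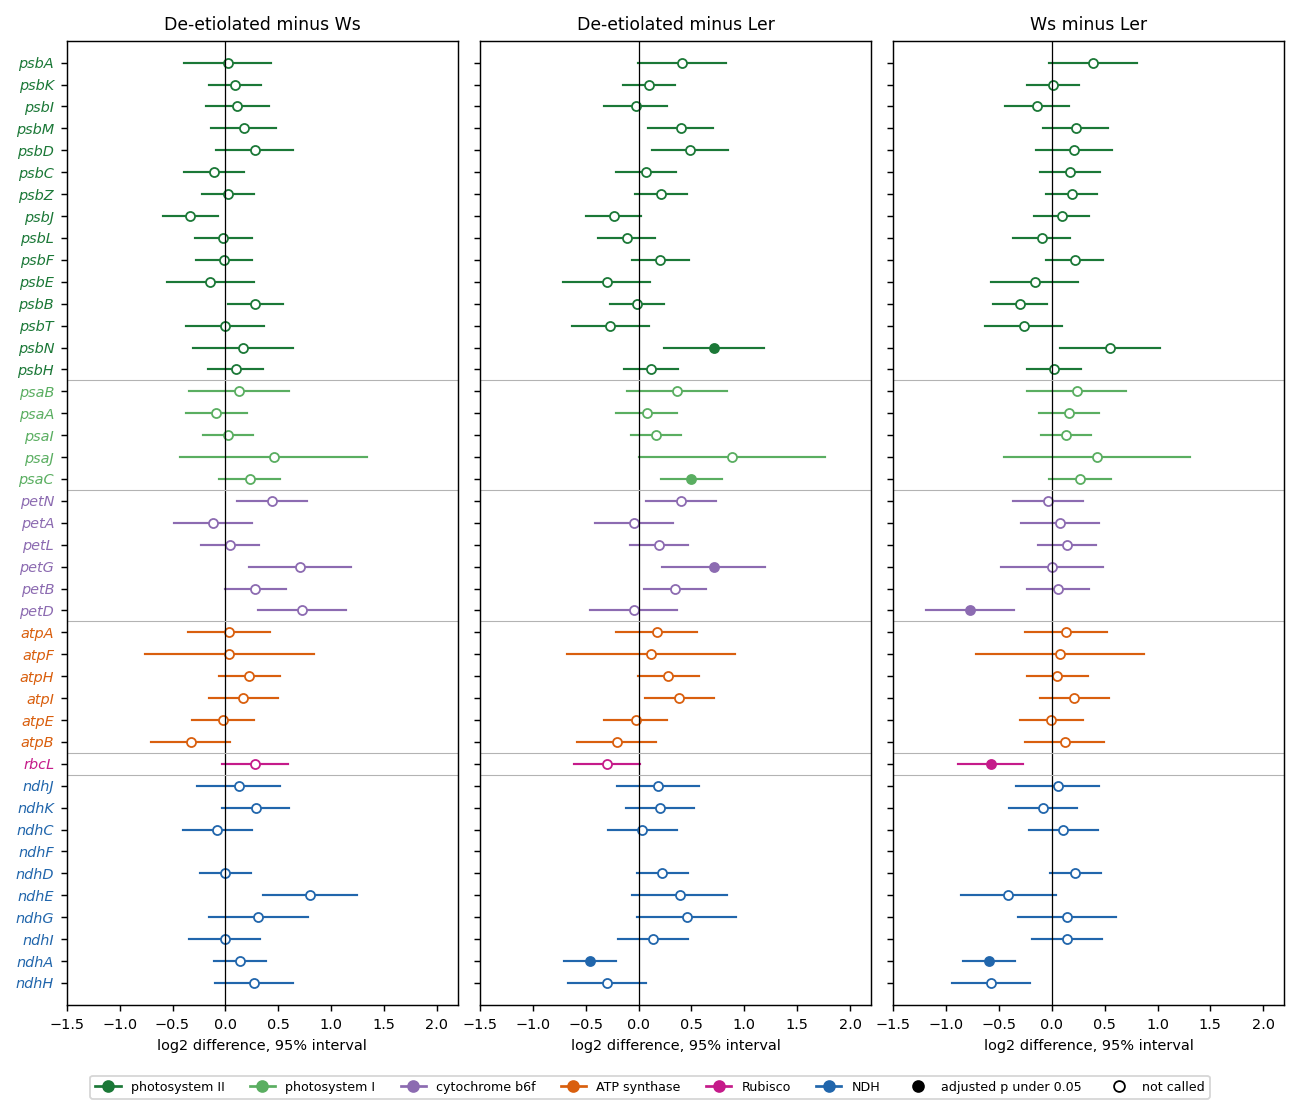
Log2 differences (horizontal) with 95% intervals from limma for each tested member (vertical), in de-etiolated seedlings minus Ws, de-etiolated seedlings minus Ler, and Ws minus Ler, n = 2 arrays each. Filled points are called: none against Ws, petG, psbN, psaC and ndhA for de-etiolated seedlings against Ler, and rbcL, petD and ndhA for Ws against Ler.

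Photosystem II genes gave 1 call, that of psbN for de-etiolated seedlings against Ler. The gene psbN lies on the opposite strand within the psbB unit, and its product was shown in tobacco to act in assembly and repair of photosystem II rather than as a subunit. Its signal was 133 and 123 in gibberellin-deficient seedlings, 135 and 213 in de-etiolated seedlings, 175 and 131 in Ws, and 112 and 94.0 in Ler. Both Ler arrays lay below all others, and the 2 de-etiolated arrays were 1.57-fold apart. The difference of de-etiolated seedlings from Ler was 0.71 (SE 0.217, adjusted p = 0.044, n = 2 each), and that of Ws from Ler was 0.55 (adjusted p = 0.19). The call against Ler was lost without de-etiolated replicate 2 (difference 0.39, adjusted p = 0.29), without Ler replicate 1 (0.071) or replicate 2 (0.23), and without either gibberellin-deficient array (0.067).

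The reaction centre of photosystem II is formed by the D1 protein from psbA and the D2 protein from psbD, and psbD and psbJ were called only over the 4 groups together. The signal of psbD was 1070 and 818 in gibberellin-deficient seedlings, 1439 and 1919 in de-etiolated seedlings, 1387 and 1353 in Ws, and 1298 and 1082 in Ler. Its values in gibberellin-deficient seedlings lay below those of every other array, and those of de-etiolated seedlings above. The gibberellin-deficient difference from Ler was -0.34 (adjusted p = 0.22), the lowest of the photosystem II genes, and that of de-etiolated seedlings from Ler was 0.49 (adjusted p = 0.068). For psbJ, a small subunit cotranscribed with the cytochrome b559 genes psbE and psbF, the order of these mutants was turned round. Its signal was 875 and 861 in gibberellin-deficient seedlings, 577 and 561 in de-etiolated seedlings, 706 and 727 in Ws, and 632 and 712 in Ler. The psbJ difference was 0.37 for gibberellin-deficient seedlings against Ler (adjusted p = 0.069), -0.28 for de-etiolated seedlings against both wild types (0.10) and -0.33 against Ws (0.17). The F test spans the pair of mutants, which were not compared directly.

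Among the other photosystem II genes at the ends of a comparison, psbB encodes an inner antenna protein and psbE a subunit of cytochrome b559. The psbB signal was 1471 and 1541 in gibberellin-deficient seedlings, 1490 and 1304 in de-etiolated seedlings, 1175 and 1115 in Ws, and 1346 and 1469.8 in Ler. Ws lay below all other arrays, with a difference of -0.30 from Ler (adjusted p = 0.19) and a de-etiolated difference from Ws of 0.28 (0.24). The psbE signal was 1384 and 1596 in gibberellin-deficient seedlings, 869 and 1428 in de-etiolated seedlings, 1165 and 1300.5 in Ws, and 1334 and 1418 in Ler. Its 2 de-etiolated arrays spanned all those of Ws and Ler, and the difference from Ler was -0.30 (adjusted p = 0.31). For gibberellin-deficient seedlings against Ler, 12 of the 15 photosystem II genes had positive differences, from 0.06 to 0.37, and none was called. Over all 13648 probe sets 6967 were positive. The 15 genes were measured on the same arrays and some are transcribed together, so they are not separate observations. An unadjusted p under 0.05 by limma was found for 2 of them, against 3528 of all 13648 probe sets. The members cotranscribed as psbE-psbF-psbL-psbJ were all positive, from 0.11 to 0.37, and psbK and psbI both had 0.21. The 10 photosystem II genes not given by array, psbA, psbK, psbI, psbM, psbC, psbZ, psbL, psbF, psbT and psbH, had differences between -0.27 and 0.41 over the 5 comparisons, none of them called.

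Photosystem I gave 1 call, psaC, which encodes the subunit that carries the terminal iron-sulfur clusters. The psaC signal was 601 and 539 in gibberellin-deficient seedlings, 864 and 832 in de-etiolated seedlings, 783 and 666 in Ws, and 639 and 562 in Ler. Both de-etiolated arrays were above all others. The difference of de-etiolated seedlings from Ler was 0.50 (SE 0.133, adjusted p = 0.025, n = 2 each), from the mean of both wild types 0.36 (0.063) and from Ws 0.23 (0.41). The call against Ler was lost without de-etiolated replicate 1 (adjusted p = 0.090) or replicate 2 (0.058) and without Ler replicate 2 (0.17).

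The genes psaA and psaB, which encode the reaction centre heterodimer and are transcribed together, were not called. The psaA signal was 2133 and 2053 in gibberellin-deficient seedlings, 1804 and 2284 in de-etiolated seedlings, 2303 and 2014 in Ws, and 1977 and 1877 in Ler. That of psaB was 1102 and 1362 in gibberellin-deficient seedlings, 955 and 1631 in de-etiolated seedlings, 1311 and 996 in Ws, and 957 and 984 in Ler. The groups overlapped in both genes, except that each gibberellin-deficient and each Ws array was above both Ler arrays, and the psaB arrays of de-etiolated seedlings were 1.71-fold apart. The small subunit gene psaI had 1426 and 1460.2 in gibberellin-deficient seedlings, 1576 and 1734 in de-etiolated seedlings, 1634 and 1617 in Ws, and 1496 and 1459 in Ler. The small subunit gene psaJ had 1524 and 799 in gibberellin-deficient seedlings, 2346 and 2479 in de-etiolated seedlings, 1291 and 2394 in Ws, and 799 and 2134 in Ler. Its arrays differed 1.91-fold within gibberellin-deficient seedlings, 1.85-fold within Ws and 2.67-fold within Ler. The de-etiolated difference from Ler of 0.88, the highest of all members there, was not called (adjusted p = 0.17), and it was 1.59 without Ler replicate 2 (0.023) and 0.18 without Ler replicate 1 (0.82).

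**Figure D4:**
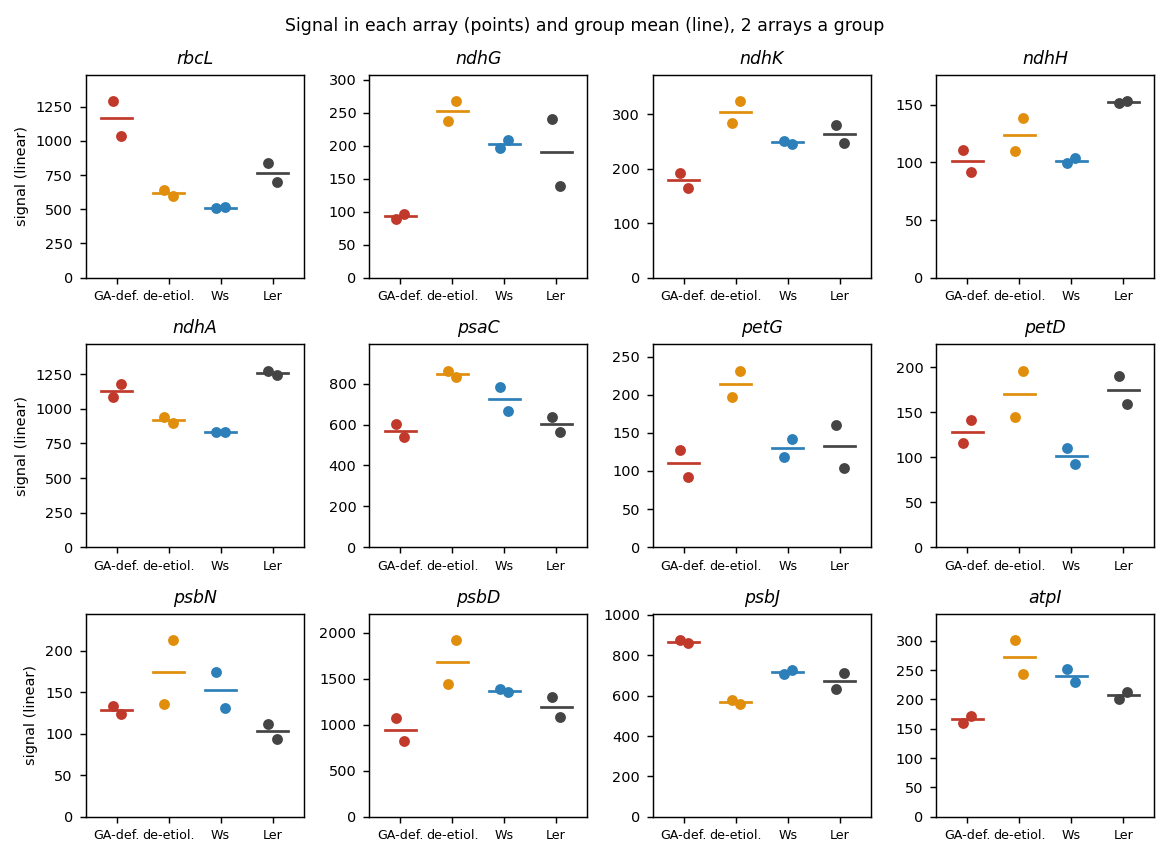
Signal (vertical, linear scale from 0) of the 12 members called in a comparison or by the F test, with 1 point per array and a line at the group mean; gibberellin-deficient seedlings, de-etiolated seedlings, Ws and Ler run from left to right. For rbcL the gibberellin-deficient arrays, at 1291 and 1038, are above all others, and for ndhG, at 89.2 and 96.8, they are below all others.

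In the cytochrome b6f complex, petG was called for de-etiolated seedlings and petD for Ws. The petG product is a small subunit needed for assembly or stability of the complex. Its signal was 128 and 92.4 in gibberellin-deficient seedlings, 197 and 232 in de-etiolated seedlings, 118 and 142 in Ws, and 161 and 104 in Ler. Both de-etiolated arrays were above all others. The difference was 0.71 against the mean of both wild types (SE 0.192, adjusted p = 0.036), 0.71 against Ler (SE 0.222, adjusted p = 0.049) and 0.71 against Ws (adjusted p = 0.13). Against the mean, the call was lost without de-etiolated replicate 1 (adjusted p = 0.095) or 2 (0.20), Ws replicate 1 (0.079) or 2 (0.052), or Ler replicate 2 (0.087). Against Ler it stayed only without Ler replicate 1, and without Ler replicate 2 the difference was 0.40 (adjusted p = 0.36).

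The petD product, subunit IV, forms the core of the complex with cytochrome b6 from petB. Its signal was 115 and 141 in gibberellin-deficient seedlings, 145 and 196 in de-etiolated seedlings, 110.0 and 92.5 in Ws, and 191 and 159 in Ler. Both Ws arrays were below all others. Ws differed from Ler by -0.77 (SE 0.190, adjusted p = 0.035, n = 2 each), de-etiolated seedlings from Ws by 0.72 (adjusted p = 0.073) and gibberellin-deficient seedlings from Ler by -0.44 (0.17). The Ws call was lost without Ws replicate 1 (adjusted p = 0.078) or 2 (0.18), Ler replicate 1 (0.20) or 2 (0.071), or gibberellin-deficient replicate 2 (0.051). In the same transcription unit petB, not called, had differences of 0.21 for gibberellin-deficient seedlings against Ler and 0.06 for Ws against Ler.

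Cytochrome f, the product of petA, and the small subunit gene petL were not called in any comparison. The petA signal was 1536 and 1574 in gibberellin-deficient seedlings, 1223 and 1577 in de-etiolated seedlings, 1540 and 1468 in Ws, and 1715 and 1188 in Ler. The petL signal was 1379 and 1516 in gibberellin-deficient seedlings, 1349 and 1508 in de-etiolated seedlings, 1504 and 1269 in Ws, and 1279 and 1215 in Ler. For petA the 2 Ler arrays spanned all others. For petL both gibberellin-deficient arrays lay above both Ler arrays, with a difference of 0.21 (adjusted p = 0.31). The small subunit gene petN had a de-etiolated difference from the mean of both wild types of 0.42 (adjusted p = 0.062), and petB one of 0.31 (0.10).

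No gene of the ATP synthase was called in any comparison by limma. In de-etiolated seedlings, 1 of the 6 had an unadjusted p under 0.05 by limma against Ler, where 4076 of all 13648 probe sets did. Against the mean of both wild types 1 did, where 3612 of all did. The count was 0 for gibberellin-deficient seedlings against Ler (3528 of all), de-etiolated seedlings against Ws (2309) and Ws against Ler (2476). The lowest adjusted p in the complex was 0.11, for atpI in de-etiolated seedlings against Ler, and atpI was the only one of its 6 genes to differ by the F test over the 4 groups. The atpI product is subunit a, through which protons enter and leave the membrane ring. Its signal was 159.9 and 172 in gibberellin-deficient seedlings, 301 and 244 in de-etiolated seedlings, 252 and 229.7 in Ws, and 201 and 213 in Ler. The gibberellin-deficient arrays were the lowest, followed by those of Ler, with a difference from Ler of -0.31 (adjusted p = 0.21), against 0.38 for de-etiolated seedlings (0.11) and 0.21 for Ws (0.51). The stator subunit gene atpF had 1592 and 489 in gibberellin-deficient seedlings, 1695 and 1552 in de-etiolated seedlings, 1466 and 1701 in Ws, and 1523 and 1466 in Ler. The atpF difference of gibberellin-deficient seedlings from Ler, -0.76 (adjusted p = 0.22), rested on 1 low array of 2 that were 3.26-fold apart. Without gibberellin-deficient replicate 1 it was -1.61 (adjusted p = 0.0011), a call, and without replicate 2 it was 0.09 (0.80).

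The proton ring gene atpH had 1501 and 1434 in gibberellin-deficient seedlings, 1484 and 1893 in de-etiolated seedlings, 1496 and 1372 in Ws, and 1421 and 1339 in Ler. In the catalytic head, atpB for the beta subunit had 1459 and 1198 in gibberellin-deficient seedlings, 974 and 1419.9 in de-etiolated seedlings, 1447 and 1509 in Ws, and 1475 and 1249.6 in Ler. The rotor subunit gene atpE had 1522 and 1502 in gibberellin-deficient seedlings, 1517 and 1904 in de-etiolated seedlings, 1597 and 1865 in Ws, and 1636 and 1831 in Ler. Differences of these 3 genes ran from -0.33 to 0.28 over the 5 comparisons, and those of atpA, for the alpha subunit of the head, from -0.13 to 0.17.

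The gene for the large subunit of Rubisco, rbcL, was the one member called higher in gibberellin-deficient seedlings. Its signal was 1291 and 1038 in gibberellin-deficient seedlings, 644 and 597 in de-etiolated seedlings, 509 and 513 in Ws, and 837 and 697 in Ler. No group overlapped with another, and the order from high to low was gibberellin-deficient, Ler, de-etiolated, Ws. Gibberellin-deficient seedlings exceeded Ler by 0.60 (SE 0.142, 95% interval 0.29 to 0.91, adjusted p = 0.020, n = 2 each), a 1.51-fold difference. Ws was below Ler by -0.58 (SE 0.142, adjusted p = 0.035). De-etiolated seedlings differed by -0.30 from Ler (adjusted p = 0.18) and by 0.28 from Ws (0.35). The gibberellin-deficient call was lost without gibberellin-deficient replicate 1 (difference 0.44, adjusted p = 0.20) and without Ler replicate 2 (0.47, 0.13). The Ws call was lost without Ws replicate 1 (adjusted p = 0.15) or 2 (0.13) and without Ler replicate 1 (0.21).

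Of the 9 NDH genes tested, 3 were called in gibberellin-deficient seedlings, all lower than in Ler, where 6.18% of all probe sets were lower. All 3 calls were lost with the arrays centred on the plastid-encoded genes. Of these, ndhG encodes a subunit of the membrane arm, while ndhH and ndhK belong to the stromal arm that connects to it. The ndhG signal was 89.2 and 96.8 in gibberellin-deficient seedlings, 237 and 268 in de-etiolated seedlings, 196 and 209 in Ws, and 240.1 and 139 in Ler. Both gibberellin-deficient arrays were below all others, and the Ler arrays were 1.72-fold apart. The difference from Ler was -0.95 (SE 0.214, adjusted p = 0.016, n = 2 each). It was lost as a call without gibberellin-deficient replicate 1 (adjusted p = 0.11) or 2 (0.070) and without Ler replicate 1 (-0.57, 0.12).

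The ndhK signal was 193 and 165 in gibberellin-deficient seedlings, 284 and 324 in de-etiolated seedlings, 251 and 246 in Ws, and 281 and 248 in Ler. Both gibberellin-deficient arrays were again below all others, with a difference from Ler of -0.55 (SE 0.147, adjusted p = 0.032). The call was lost without gibberellin-deficient replicate 1 (adjusted p = 0.081) or 2 (0.21) and without Ler replicate 1 (0.19) or 2 (0.057). The ndhH signal was 111 and 91.7 in gibberellin-deficient seedlings, 109.7 and 138 in de-etiolated seedlings, 99.1 and 104 in Ws, and 151 and 153 in Ler. Here both Ler arrays were above all others, and the gibberellin-deficient and Ws arrays overlapped. The ndhH difference was -0.58 for gibberellin-deficient seedlings (SE 0.170, adjusted p = 0.049) and -0.57 for Ws against Ler (adjusted p = 0.075). Its call stayed only without a de-etiolated array, and was lost without gibberellin-deficient replicate 1 (adjusted p = 0.098) or 2 (0.26), either Ws array (0.062), or Ler replicate 1 (0.17) or 2 (0.15).

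The membrane arm gene ndhA was lower in de-etiolated seedlings and in Ws than in Ler. Its signal was 1087 and 1177 in gibberellin-deficient seedlings, 938 and 896 in de-etiolated seedlings, 832 and 833 in Ws, and 1277 and 1243 in Ler. All 4 arrays of the Ler background were above the 4 others. Against Ler the difference was -0.46 in de-etiolated seedlings (SE 0.112, adjusted p = 0.017) and -0.60 in Ws (SE 0.112, adjusted p = 0.0086), and in gibberellin-deficient seedlings it was -0.16 (0.42). The de-etiolated call was lost without de-etiolated replicate 2 (adjusted p = 0.056) or Ler replicate 1 (0.077) or 2 (0.073). The Ws call was lost without Ws replicate 1 (0.063) or 2 (0.051) or Ler replicate 1 (0.055). Of the 3′ to 5′ ratios given above, that of the older actin control was likewise higher in the 4 arrays of the Ler background, that of the newer one overlapped and that of ubiquitin was not higher. Their part in the ndhA difference was not tested.

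The remaining NDH genes, all for membrane arm subunits except the stromal arm genes ndhI and ndhJ, were not called. The ndhE signal was 574 and 379.7 in gibberellin-deficient seedlings, 699.8 and 499 in de-etiolated seedlings, 358 and 319 in Ws, and 412 and 492 in Ler. Both de-etiolated arrays were above those of Ws and Ler, with differences of 0.80 from Ws (adjusted p = 0.068) and 0.59 from the mean of both wild types (0.052). The ndhC signal was 1293 and 1376 in gibberellin-deficient seedlings, 1078 and 1428 in de-etiolated seedlings, 1426 and 1200 in Ws, and 1140.2 and 1288 in Ler. The ndhD signal was 1622 and 1679 in gibberellin-deficient seedlings, 1622 and 1788 in de-etiolated seedlings, 1685 and 1719 in Ws, and 1491 and 1422 in Ler. Both Ler arrays were the lowest for ndhD, with differences of 0.18 to 0.23 for the other groups (adjusted p of 0.19 to 0.33). The ndhF signal was 18.6 and 11.4 in gibberellin-deficient seedlings, 16.7 and 16.2 in de-etiolated seedlings, 14.9 and 15.7 in Ws, and 42.4 and 17.9 in Ler. With a mean of 19.2 over the 8 arrays, below the lowest mean kept of 24.2, ndhF was not tested. Differences of ndhJ ran from -0.47 to 0.18 over the 5 comparisons, and the highest of ndhI was 0.16.

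Within 1 transcription unit some members were called and others were not. In the unit ndhC-ndhK-ndhJ, the gibberellin-deficient difference from Ler was -0.55 for ndhK, -0.47 for ndhJ (adjusted p = 0.12) and 0.14 for ndhC (0.61). In the unit that runs from ndhH through ndhA, ndhI, ndhG, ndhE and psaC to ndhD, ndhH and ndhG were lower, while the other 5 genes lay between -0.16 and 0.18 and were not called. The psbB-psbT-psbH-petB-petD unit had 4 differences of 0.06 to 0.21 and that of petD at -0.44, none of them called. The difference between neighbours within a unit was not tested.

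**Figure D5:**
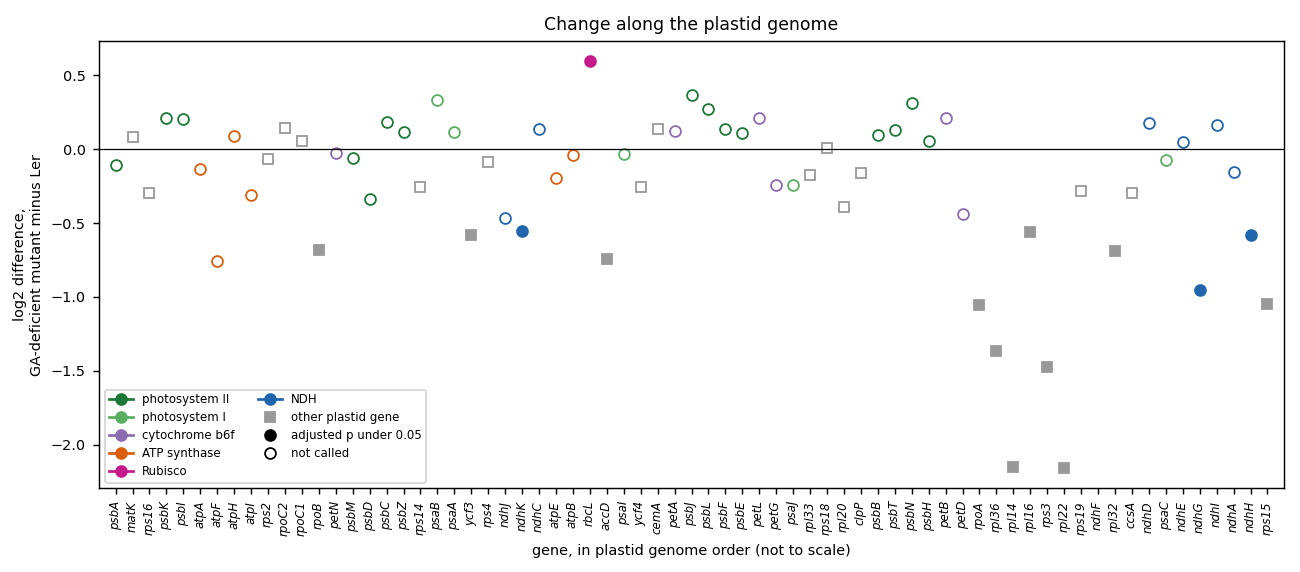
Log2 difference of gibberellin-deficient seedlings minus Ler (vertical) for members and the 26 other plastid-encoded genes, in their order along the plastid genome (horizontal, not to scale). Filled symbols are called: rbcL is above 0 and ndhK, ndhG and ndhH are below, next to members that were not called, while the 11 other plastid genes called (squares) are all below 0.

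The called members were mostly among the dimmer ones. Of the 42 tested, 27 had a mean signal over 1000 and 15 a lower one. In gibberellin-deficient seedlings against Ler, the 4 members called, rbcL included, were all among the 15 (26.7%), where over all probe sets 8.08% of the brighter and 10.9% of the dimmer were called. The median size of the difference was 0.14 among the brighter and 0.31 among the dimmer members, with median SEs of 0.136 and 0.168. Over all probe sets it was likewise smaller among the brighter (0.156) than among the dimmer (0.249). Between 18 and 23 members were within the top 2% of signals on each array, whose highest signal was 2134 to 2814. Whether bright probe sets near the top of the range understate differences was not tested.

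Some nuclear genes of the same pathways were called in de-etiolated seedlings, all higher, while others were not called and had negative differences. The 10 lists, of nuclear subunits of each complex, light-harvesting proteins and related groups, hold 82 genes, of which 11 were named by a probe set of their own, all tested, and 3 lists had none. In gibberellin-deficient seedlings against Ler 0 were called by limma, where 10.7% of all probe sets were. The median difference of the 11 was 0.18, and 1 had an unadjusted p under 0.05 by limma, against 3528 of all 13648 probe sets. Both nuclear NDH genes among the 11 had negative differences, NdhL of -0.42 and NdhN of -0.32. PSBW (-0.052) and PSAN (-0.017) were negative too, and the rest were positive. In de-etiolated seedlings 3 of 11 (27.3%) were higher than Ler, where 7.83% of all probe sets were, and 2 (18.2%) were higher than the mean of both wild types, where 5.45% were. These were LHCB4.2, a minor antenna protein of photosystem II, with 0.76 (adjusted p = 0.0062) and 0.62 (0.013), and NdhL, a nuclear subunit of NDH, with 0.88 (0.014) and 0.71 (0.026). Against Ler alone, PSAN, a lumenal subunit of photosystem I, was called too, with 0.42 (0.033). Median differences of the 11 were 0.16 against Ler and 0.10 against the mean. Among those not called, differences from Ler were negative for RCA (-0.40) and PSAE-1 (-0.096) and positive for the rest. Differences from the mean were negative for RCA (-0.48), PSAE-1 (-0.16) and LHCB4.1 (-0.062) and positive for the rest. Against Ws 0 of the 11 were called by limma, where 2.24% of all probe sets were. Of the 11, 3 had an unadjusted p under 0.05 by limma there, against 2309 of all 13648 probe sets. For Ws against Ler 0 were called, where 5.82% were, and 0 had such a p, against 2476 of all probe sets.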

How the data were processed

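Per the submitters' processing notes, the authors used MAS5, and they deposited 1 signal intensity for each probe set on each array. Further settings are not given in the sources used here. The 2%-trimmed mean was 100.01 on all 8 arrays. Of the 22810 probe sets on the array, 13513 have 1 gene in its annotation, 503 have several and 8730 have none, beside 64 controls. Of those with 1 gene, 69 are for a plastid gene. Gene names came from the array annotation, and chromosome and gene order from the TAIR10.1 table.

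The log2 was taken after adding 2.96, which is 10% of the median signal of probe sets with a gene name. Folds on this scale understate changes of dim genes. Controls and the lowest 40% of probe sets by mean were dropped, which left 13648. A single limma fit (lmFit, contrasts.fit, eBayes with a mean-variance trend) covered the 4 groups, with 4 residual and about 8.00 prior degrees of freedom. Two-sided p-values were adjusted by Benjamini-Hochberg within each comparison, with a threshold of 0.05. Precision is limited by the number of arrays: SEs of a difference between 2 groups had a median of 0.197, and of 0.148 for members. The labels do not state whether a group's arrays are of separate cultures, and p-values thus measure only the spread between these samples, which may be technical.

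All members are accounted for by complex. Values on every array are given for members called in any comparison and for those at either end of a complex in a comparison. Members called by the F test alone were added, and ndhF since it was not tested. Members and lists were chosen with earlier results of these data known. Alternatives were quantile normalization, centring on plastid-encoded genes, an added value of 50% of the median, no filter, no trend, probe sets prone to cross-hybridisation left out, a block for the replicate number, and each array left out. On simulated data for gibberellin-deficient seedlings against Ler (13648 probe sets), 86 of 100 changed 2-fold and 100 of 100 changed 4-fold were recovered, with 8 false calls. These counts hold for the simulated spread, and whether it matched the real spread was not tested. Real probe sets of similar brightness differed in spread, with an SE of 0.366 for atpF and 0.132 for atpH in this comparison. Recovery of real changes in genes with a wide spread may therefore be lower. The tools were limma 3.58.1 in R 4.3.3, and, in Python 3.11.15, pandas 2.3.3, numpy 2.4.6 and matplotlib 3.10.9.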

Additional observations from a re-analysis of the deposited data

How the results depend on the processing

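No called difference changed direction under any alternative, while the median member difference of Ws from Ler, which has no test, changed sign under 1. With each array centred on the plastid-encoded genes, gibberellin-deficient seedlings against Ler gave 9 called members in place of 4 and 2756 called probe sets (2367 higher, 389 lower) in place of 1464 (621 and 843). The median member difference was then 0.34 in place of 0.07, and the median of all probe sets was 0.28. The same centring gave 3 members against the mean of both wild types in place of 1, 2 against Ws in place of 0 (petD and ndhE) and 2 against Ler in place of 4 for de-etiolated seedlings, and 18 in place of 10 (5775 probe sets in place of 3564) over the 4 groups. The de-etiolated median against Ws became 0.23 where that of all probe sets was 0.15, with calls of 287 higher and 63 lower in place of 184 and 122. The Ws median against Ler became -0.067 where that of all probe sets was -0.17, with 210 higher and 742 lower in place of 370 and 424. Quantile normalization gave 3 members for de-etiolated seedlings against the mean of both wild types and a median against Ler of 0.046 in place of 0.17.

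Without the filter on low values, de-etiolated seedlings gave 0 members against the mean of both wild types (967 probe sets in place of 1501), 135 probe sets in place of 306 against Ws and 2 members against Ler, and Ws against Ler gave 1 member in place of 3. With more probe sets tested the adjustment is stricter. Without a mean-variance trend, members called were 1 for gibberellin-deficient seedlings, 0, 0 and 0 for de-etiolated seedlings against the mean, Ws (115 probe sets) and Ler, 0 for Ws against Ler and 4 by the F test; the cause was not tested. Where 0 members were called, those at an unadjusted p under 0.05 by limma were counted. Against the mean of both wild types they were 9 without the filter and 4 without the trend. Without the trend they were 5 against Ws, 8 against Ler and 5 for Ws against Ler. Such counts over all probe sets are not given here for these refits. The larger added value and leaving out probe sets with possible cross-hybridisation moved no count of members.

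Leaving out 1 array leaves 1 array in a group, which is assumed to vary like the others. The members called then ranged from 1 to 4 for gibberellin-deficient seedlings (446 to 1606 probe sets), from 0 to 3 (632 to 1416), 0 to 1 (77 to 353) and 1 to 6 (940 to 2071) for de-etiolated seedlings against the mean, Ws and Ler, from 0 to 3 (351 to 853) for Ws against Ler, and from 5 to 11 (2084 to 3197) over the 4 groups. These counts include members called only without an array. Of 96 refits of single called genes without an array, 47 stayed past the threshold and 49 did not, all in the same direction; of 84 other refits 60 and 24.

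The groups share replicate numbers, but deviations of same-numbered arrays correlated at only -0.033 to 0.14, so the numbers were not taken as pairs. With a replicate block, 4 members were called for gibberellin-deficient seedlings (ndhJ in place of ndhH), 3 for de-etiolated seedlings against the mean and 1 against Ws, and the other counts were 4 and 3 as before.

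Leaving out a de-etiolated array from the count of members by highest group mean was chosen after seeing the data; de-etiolated seedlings were then highest for 27 of 42 without replicate 1 and 16 without replicate 2, in place of 22.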

Other observations

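Among plastid genes that are no members, those for assembly of the photosynthetic complexes were looked at after their values were seen. The signal of ycf3, an assembly factor of photosystem I, was 365 and 407 in gibberellin-deficient seedlings, 714 and 836 in de-etiolated seedlings, 785 and 632 in Ws, and 661 and 502 in Ler. Both gibberellin-deficient arrays were below all others, with a difference from Ler of -0.58 (limma adjusted p = 0.043). For ycf4, a second assembly factor of photosystem I, the difference was -0.25 (adjusted p = 0.19). The signal of ccsA, needed to attach haem to cytochromes, was 391 and 716 in gibberellin-deficient seedlings, 1526 and 1878 in de-etiolated seedlings, 1643 and 1538 in Ws, and 963 and 440.3 in Ler. All 4 arrays of the Ler background were below the others, with differences from Ler of 1.37 in de-etiolated seedlings (adjusted p = 0.013) and 1.28 in Ws (0.035).

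The probe set of ndhB, which stands for both copies of that NDH gene, had 80.4 and 96.5 in gibberellin-deficient seedlings, 59.8 and 85.2 in de-etiolated seedlings, 70.5 and 69.4 in Ws, and 113 and 73.3 in Ler. It was not called in any comparison, with differences of -0.36 to 0.03 and adjusted p-values of 0.36 to 0.97 by limma.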
